A study of Homo sapiens with 2 samples.

Results

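The oncofetal genes IGF2BP1, IGF2BP2, IGF2BP3, LIN28B, HMGA1 and HMGA2 were examined on 2 arrays of RNA labelled as U87, an established human glioblastoma cell line. Members were chosen by gene name: every probe set whose only gene symbol in the platform annotation was one of these 6 genes was taken, which gave 21 of 54675 probe sets and 6 of 19775 named genes. No probe set listed a member together with another gene. One sample had been transfected transiently with FOXM1 siRNA and the other with a non-target siRNA. FOXM1 is a forkhead factor that activates genes of cell division. Both were cultured in DMEM with fetal bovine serum and transfected with a lipid reagent, and total RNA was taken 48 hours later. Each group holds 1 array, so no difference below has a replicate check or a p-value, and the number of arrays limits the precision. The study asked which transcripts differ after FOXM1 knockdown.

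These genes are switched on in the embryo, silenced in most adult tissues and active again in many tumours. The LIN28 proteins bind precursors of the let-7 microRNAs and block their maturation, and let-7 in turn represses LIN28B, the IGF2BP genes and HMGA2. The IGF2BP proteins bind and stabilise mRNAs, in part as readers of m6A, a methyl mark on RNA. The HMGA proteins bind AT-rich DNA and change the shape of chromatin, and HMGA2 is known to activate IGF2BP2.

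The let-7 sequences are shown because LIN28B acts on the precursors and the members are known targets of the mature forms; the mature microRNAs themselves were not measured here. RefSeq (GRCh38.p14) lists 12 gene copies of the family with 9 different mature sequences, and all 12 share 1 seed, bases 2 to 8, printed in capitals. The 4 lines give family members that differ outside the seed.
let-7a: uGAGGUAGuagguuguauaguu
let-7d: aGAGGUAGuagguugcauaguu
let-7i: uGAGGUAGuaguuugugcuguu
miR-98: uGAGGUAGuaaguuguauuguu

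LIN28 proteins are known to contact the letters GGAG in the loop of let-7 precursors. GGAG, read on the RNA strand only, was present in 9 of the 12 let-7 hairpins and in 43.4% of all 1562 hairpins of the table. The next 3 hairpins, with GGAG in capitals, are those inside MIR100HG and MIRLET7BHG, the 2 host transcripts listed with the let-7 maturation genes below. Host genes of the other let-7 hairpins were not searched. MIR100HG holds let-7a-2 (chr11:122146522-122146593, minus strand), and MIRLET7BHG holds let-7a-3 (chr22:46112749-46112822, plus strand) and let-7b (chr22:46113686-46113768, plus strand). The let-7a-2 hairpin has 1 GGAG match and the other 2 have none.
let-7a-2: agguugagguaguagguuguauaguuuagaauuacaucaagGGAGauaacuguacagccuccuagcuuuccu
let-7a-3: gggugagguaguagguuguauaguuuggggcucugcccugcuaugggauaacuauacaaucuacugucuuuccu
let-7b: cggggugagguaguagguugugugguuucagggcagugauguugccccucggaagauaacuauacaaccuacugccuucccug

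Some facts of the 2 arrays bear on every value below. Signals are MAS5 intensities on a linear scale, already scaled by the authors to a trimmed mean of 500.07 on both arrays. A probe set counted as detected above the floor of its array, the 90th percentile of 135 olfactory receptor probe sets, which was 77.7 on the FOXM1 siRNA array and 60.8 on the non-target array. FOXM1 itself read 1343 on the FOXM1 siRNA array and 1520 on the non-target array in its single probe set, a log2 difference of -0.18, so the targeted transcript gave little check of the labels. The 9p21 genes CDKN2A, CDKN2B and MTAP, which U87 cells are known to lack, read 421, 31.8 and 76.3 on the FOXM1 siRNA array and 3467, 350 and 619 on the non-target array. The CDKN2B and MTAP values on the FOXM1 siRNA array lay below its floor, whereas CDKN2A passed the floor on both arrays. Another detected probe set of MTAP gave -0.28 in log2 difference. An effect of the siRNA and a difference between the cells therefore cannot be told apart in any result on the members. Of 7 glial and glioma markers, 4 lay above the floor on the FOXM1 siRNA array and 5 on the non-target array, and GFAP, the defining astrocyte filament, lay below it on both. Their summed signal was 69955 on the FOXM1 siRNA array and 24510 on the non-target array, nearly all of it from VIM (40017 on the FOXM1 siRNA array and 21179 on the non-target array) and CD44 (29344 on the FOXM1 siRNA array and 2222 on the non-target array). Single glial markers went the other way or were level: SOX2 read 59.2, below the floor, on the FOXM1 siRNA array and 680 on the non-target array, S100B read 2.21, below the floor, on the FOXM1 siRNA array and 87.8 on the non-target array, and OLIG2 read 266 on the FOXM1 siRNA array and 270 on the non-target array. Of 6 epithelial markers, 4 lay above the floor on each array. Their summed signal was 1104 on the FOXM1 siRNA array and 12763 on the non-target array. On the non-target array DSP, a desmosome gene, gave 9707 of it and KRT18 2655. KRT8 went the other way, at 265 on the FOXM1 siRNA array and 220 on the non-target array. So did EPCAM, at 98.8 on the FOXM1 siRNA array and 48.1, below the floor, on the non-target array. KRT19 lay below the floor on both arrays. Of 3 neuronal markers, 2 passed each floor, and their sum was 11394 on the FOXM1 siRNA array and 7820 on the non-target array; MAP2 read 985 on the FOXM1 siRNA array and 89.8 on the non-target array, and RBFOX3 lay below both floors. Of 3 endothelial markers, 2 passed the floor on the FOXM1 siRNA array and 1 on the non-target array, with sums of 245 on the FOXM1 siRNA array and 85.1 on the non-target array; VWF read 119 on the FOXM1 siRNA array and 9.86 on the non-target array, and CDH5 lay below both floors. Of 3 melanocytic markers, none passed the floor on the FOXM1 siRNA array and 2 did on the non-target array, with sums of 126 on the FOXM1 siRNA array and 151 on the non-target array and MLANA below both floors. None of the 3 haematopoietic markers measured passed either floor, and their sums were 79.9 on the FOXM1 siRNA array and 118 on the non-target array. The part of these markers in the results was not tested, and in bulk RNA fewer cells of a type and less RNA per cell cannot be told apart. The ratio of 3′ to 5′ signal of the ACTB control was 4.21 on the FOXM1 siRNA array and 6.79 on the non-target array. That of the GAPDH control was 1.09 on the FOXM1 siRNA array and 1.26 on the non-target array.

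The 6 genes went in different directions. LIN28B and IGF2BP1 were far lower on the FOXM1 siRNA array. In their brightest probe sets IGF2BP2 and IGF2BP3 were close to equal on both arrays. HMGA1 and HMGA2 were higher on the FOXM1 siRNA array in all of their detected probe sets. IGF2BP2 was higher there in both of its probe sets too, by 0.33 and 0.96 in log2 difference. With 1 probe set per gene, the one brightest by its mean log2 signal over the arrays, 2 of the 6 members were 2-fold or more lower, none was 2-fold or more higher and 4 differed by less. Over all 13865 detected genes, 15.4% were 2-fold or more lower and 16% 2-fold or more higher, so a 2-fold difference was common on these arrays. The median log2 difference was 0.15 over the 6 members and 0.01 over all detected genes. With 1 array per group no error of a difference between the arrays is available. Log2 differences of probe sets of the same gene had an SD of 0.50. It was taken over the 5476 genes that had 2 or more probe sets above both floors. This SD measures how far probe sets of a gene disagree, and not the error between arrays or cultures.

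**Figure D1:**
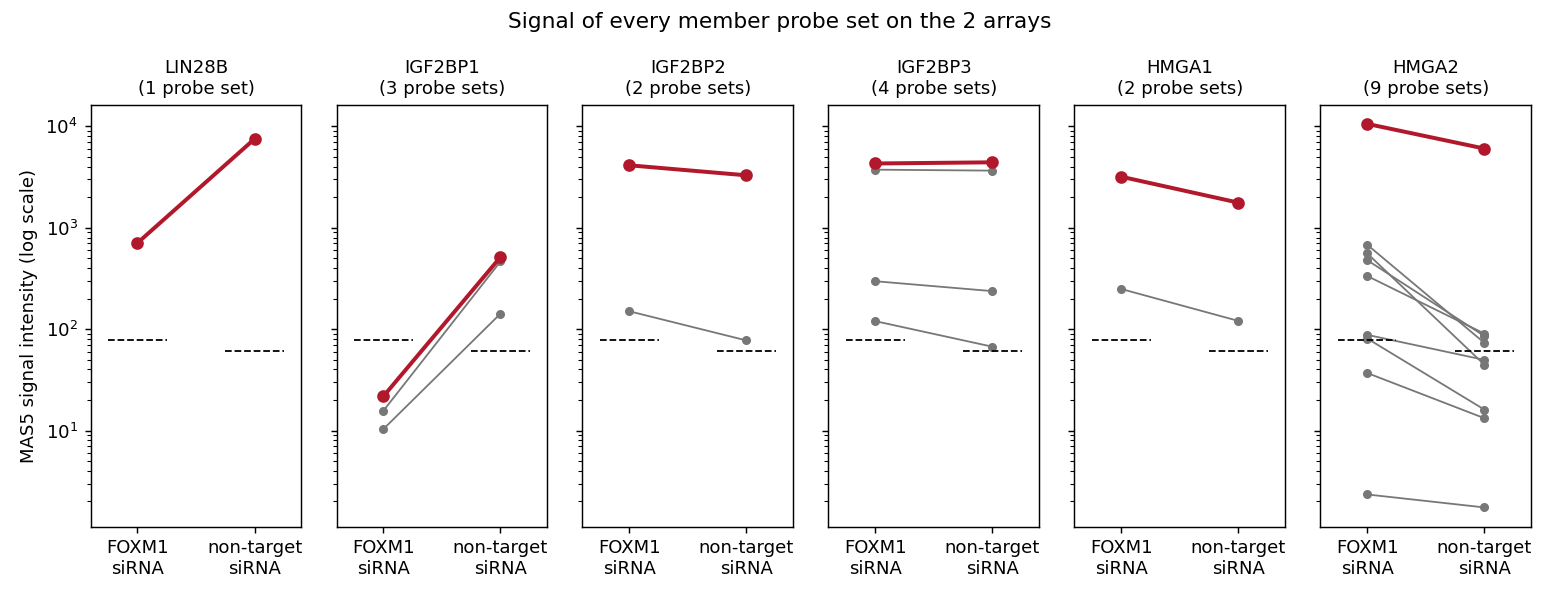
MAS5 signal intensity (log axis) of all 21 member probe sets on the FOXM1 siRNA array (left point) and the non-target array (right point), 1 line per probe set; the thick red line is the brightest probe set of the gene and the dashes are the floors. The LIN28B and IGF2BP1 lines lie lower on the left, with all 3 IGF2BP1 probe sets under the floor there, the upper IGF2BP2 and IGF2BP3 lines are nearly level, and all HMGA lines lie higher on the left.

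LIN28B, the RNA-binding protein that blocks let-7 maturation, had the largest difference of the members above the floor on both arrays. Its single probe set, 229349_at, read 707 on the FOXM1 siRNA array and 7510 on the non-target array. It was above the floor on both arrays, and the level on the FOXM1 siRNA array was 9.41% of that on the non-target array, a log2 difference of -3.41 or a 10.6-fold lower signal. Only 90 of the 13865 detected genes, LIN28B included, had a log2 difference as low or lower (0.649%), and 1.11% of detected genes were 8-fold or more lower. With 1 probe set there was no further one to compare it with. LIN28A, the paralogue of LIN28B, read 6.19 on the FOXM1 siRNA array and 6.01 on the non-target array, below the floor on both, so a difference was not detectable.

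The genes nearest to LIN28B in signal on the 2 arrays, by Euclidean distance between log2 signals over these 2 values only, were ID4, HOXD10 and MYH10. ID4, an inhibitor of helix-loop-helix transcription factors, lay at a distance of 0.25 and had a log2 difference of -3.63. HOXD10, a homeobox gene, lay at 0.37 with a log2 difference of -2.88. MYH10, a non-muscle myosin heavy chain, lay at 0.50 with a log2 difference of -4.09.

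IGF2BP1, an mRNA-binding protein of the embryo that shields its targets from decay, was above the floor on the non-target array only, in all 3 of its probe sets. Probe set 227377_at read 21.7 on the FOXM1 siRNA array and 514 on the non-target array. Probe set 223689_at read 15.6 on the FOXM1 siRNA array and 465 on the non-target array, and 241574_s_at read 10.3 on the FOXM1 siRNA array and 142 on the non-target array. All 3 lay below the floor on the FOXM1 siRNA array, and a fold can be given only as a bound against its floor. IGF2BP1 was at least 6.61-fold lower in 227377_at, at least 5.98-fold lower in 223689_at and at least 1.83-fold lower in the dimmer 241574_s_at. At its bound of -2.72 in log2 difference, 227 of the detected genes (1.64%) were as low or lower. A 4-fold or larger reduction was found for 4.08% of detected genes.

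IGF2BP2, the family member that is also expressed in adult tissues, read 4128 on the FOXM1 siRNA array and 3287 on the non-target array in probe set 218847_at. The log2 difference of 0.33 is smaller than the SD of 0.50 between probe sets of the same gene. Its dimmer probe set 223963_s_at read 150 on the FOXM1 siRNA array and 77.3 on the non-target array, a log2 difference of 0.96. Both passed the floor of each array and were under 2-fold.

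IGF2BP3, a paralogue that is active again in many carcinomas and in glioblastoma, had nearly equal signals on the 2 arrays. Probe set 203819_s_at read 4301 on the FOXM1 siRNA array and 4417 on the non-target array, a log2 difference of -0.04. Probe set 203820_s_at read 3738 on the FOXM1 siRNA array and 3656 on the non-target array, a log2 difference of 0.03. The signs of these 2 small differences turned with the scaling, to 0.03 for 203819_s_at under loess scaling and to -0.25 for 203820_s_at with the hybridisation controls set equal. The dimmer probe sets lay a little higher on the FOXM1 siRNA array: 216493_s_at read 297 there and 237 on the non-target array (log2 difference 0.32), and 1569033_at read 120 there and 67.1 on the non-target array (log2 difference 0.84). All 4 were under 2-fold.

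The log2 difference of IGF2BP1 was at most -2.72 in its brightest probe set, whereas the 2 probe sets of IGF2BP2 and the 4 of IGF2BP3 lay between -0.04 and 0.96. With 1 array per group that contrast was not tested.

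**Figure D2:**
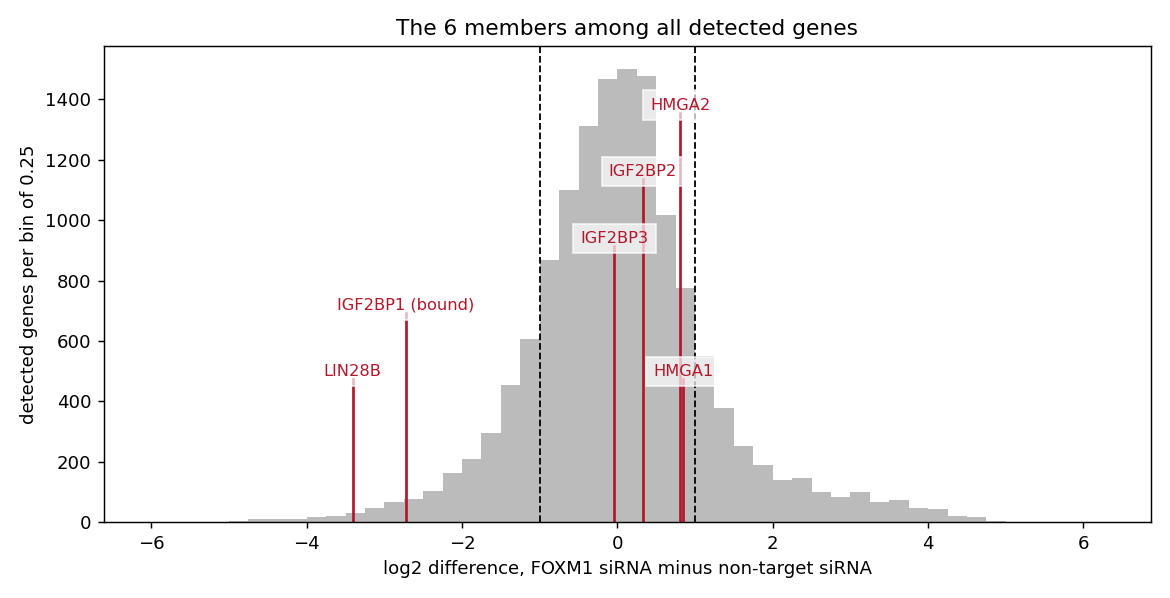
Histogram of the log2 difference, FOXM1 siRNA minus non-target siRNA, over the 13865 detected genes in bins of 0.25, with the 6 members as red lines and the 2-fold thresholds dashed; the height of a red line has no meaning. LIN28B at -3.41 and IGF2BP1 at its bound of -2.72 lie in the lower tail, and the other 4 members lie between -0.04 and 0.85, inside the thresholds.

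HMGA1, an architectural chromatin protein that binds AT-rich DNA, was higher on the FOXM1 siRNA array in both of its probe sets. Probe set 206074_s_at read 3185 on the FOXM1 siRNA array and 1767 on the non-target array, 1.80-fold higher. Probe set 210457_x_at read 249 on the FOXM1 siRNA array and 120 on the non-target array, 2.07-fold higher. The 2 log2 differences, 0.85 and 1.05, were close to each other with an SD of 0.14, and the second crossed the 2-fold line only by a little: it was 0.98 under quantile scaling and 0.77 with the hybridisation controls set equal. A difference as high as that of 206074_s_at or higher was found for 2667 detected genes (19.2%).

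HMGA2, the second AT-rich binding protein and a classical let-7 target, had 9 probe sets, and the signal of all 9 was higher on the FOXM1 siRNA array. The probe set that represents the gene, 208025_s_at, read 10574 on the FOXM1 siRNA array and 6035 on the non-target array, 1.75-fold higher, and 2787 detected genes (20.1%) were as high or higher. Some dimmer probe sets differed more. Probe set 1561633_at read 680 on the FOXM1 siRNA array and 73.3 on the non-target array, 9.28-fold higher. Probe set 1567224_at read 479 on the FOXM1 siRNA array and 85.5 on the non-target array, 5.60-fold higher. The values on the non-target array were only a little above its floor of 60.8.

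Probe set 1558682_at of HMGA2 read 334 on the FOXM1 siRNA array and 90.3 on the non-target array, 3.70-fold higher. The related 1558683_a_at read 558 on the FOXM1 siRNA array and 44.6, below the floor, on the non-target array, so it was at least 9.18-fold higher. The 2 probe sets just above the floor on the FOXM1 siRNA array alone gave lower bounds. They were 1559891_at, at 87.8 on the FOXM1 siRNA array and 49.7 on the non-target array (at least 1.44-fold higher), and 1567223_at, at 80.8 on the FOXM1 siRNA array and 16.1 on the non-target array (at least 1.33-fold higher). Probe sets 1568287_at (36.9 on the FOXM1 siRNA array and 13.2 on the non-target array) and 1568286_at (2.34 on the FOXM1 siRNA array and 1.74 on the non-target array) lay below the floor on both arrays and gave no fold. The SD of 0.50 given earlier was taken only over probe sets above both floors, as 4 of the HMGA2 probe sets were. The log2 differences of the 7 detected HMGA2 probe sets, 3 of them bounds, had an SD of 1.22, not directly comparable to it. Their median was 1.89. The direction was the same in all of them, and the size for HMGA2 depended on the probe set: 0.81 in the brightest, 1.89 as the median and 3.21 in the brightest once probe sets ending in _x_at or _s_at were left out.

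Counted by probe set, 13 of the 21 lay above both floors, 6 above 1 floor and 2 above neither. Among the 19 detected, 3 were 2-fold or more lower (LIN28B and 2 of IGF2BP1), against 13.6% of all named and detected probe sets, and 5 were 2-fold or more higher (4 of HMGA2 and 1 of HMGA1), against 15.4%. The other 11 were under 2-fold or had a bound under 2-fold. Probe sets of 1 gene share its transcripts and are not replicates.

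The let-7 pathway around LIN28B was described with a list of 19 maturation genes and LIN28 cofactors, 18 of them measured and 17 detected. Of these 17, 3 were 2-fold or more higher and 2 lower, against 16% and 15.4% of all detected genes. The median log2 difference was -0.40, against 0.01 for all detected genes. The lower count moved with the scaling, to 7 with the hybridisation controls set equal and 1 under loess scaling, and the higher count was 2 with those controls set equal, with a common floor or one 2 times as high, with a pseudocount of 50 and with both other choices of probe set. MIR100HG, host of the let-7a-2 hairpin printed above, read 7980 on the FOXM1 siRNA array and 262 on the non-target array, 30.5-fold higher. MIRLET7BHG, host of let-7a-3 and let-7b, read 135 on the FOXM1 siRNA array and 48.0, below the floor, on the non-target array, at least 2.21-fold higher. Both let-7 host transcripts of the list were thus higher on the array on which LIN28B was lower. For MIRLET7BHG this rests on a dim signal that would not pass a floor 2 times as high on either array. A link between these values and LIN28B was not tested.

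TUT7, a uridylyltransferase that can act with LIN28 on let-7 precursors, was 2.88-fold higher, at 1480 on the FOXM1 siRNA array and 515 on the non-target array; its detected probe sets ran from 0.28 to 1.52 in log2 difference. XPO5, which exports microRNA precursors from the nucleus, was 5.25-fold lower, at 509 on the FOXM1 siRNA array and 2670 on the non-target array. DROSHA, which cuts the primary transcript, was 2.04-fold lower, at 2393 on the FOXM1 siRNA array and 4890 on the non-target array. DICER1, which cuts the precursor, had a log2 difference of -0.79, under 2-fold.

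Genes known as let-7 targets, the members left out, were mostly lower. Of 25 listed, 22 were measured and 20 detected. Among these 20, 11 were 2-fold or more lower, 1 was 2-fold or more higher and 8 differed by less. Over all detected genes 15.4% were 2-fold or more lower and 16% higher. The median log2 difference of the list was -1.05, against 0.01 for all detected genes. CDC25A, a phosphatase that starts S phase, was 8.75-fold lower, at 414 on the FOXM1 siRNA array and 3627 on the non-target array. TRIM71, an embryonic RNA-binding ubiquitin ligase, was 8.05-fold lower, at 106 on the FOXM1 siRNA array and 850 on the non-target array. ARID3B, a DNA-binding protein, read 12.7, below the floor, on the FOXM1 siRNA array and 598 on the non-target array, at least 7.70-fold lower. TGFBR1, a TGF-beta receptor, was the higher one, at 7703 on the FOXM1 siRNA array and 2799 on the non-target array, 2.75-fold. MYC, a transcription factor gene known both as a let-7 target and as an mRNA bound by IGF2BP proteins, had a log2 difference of -0.28. HMGA2, a let-7 target too, was higher, so it went the other way from most of this list. Without probe sets ending in _x_at or _s_at, 7 members of this list were lower and none was higher. With the median of probe sets 11 were lower and 1 was higher. Among the lower genes, other probe sets of CCND2 and NR6A1 gave 0.40 and 0.31 in log2 difference. Among the genes under 2-fold, other probe sets passed 2-fold for CDK6 (-1.78), IGDCC3 (-1.28) and THBS1 (1.29 in log2 difference).

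**Figure D3:**
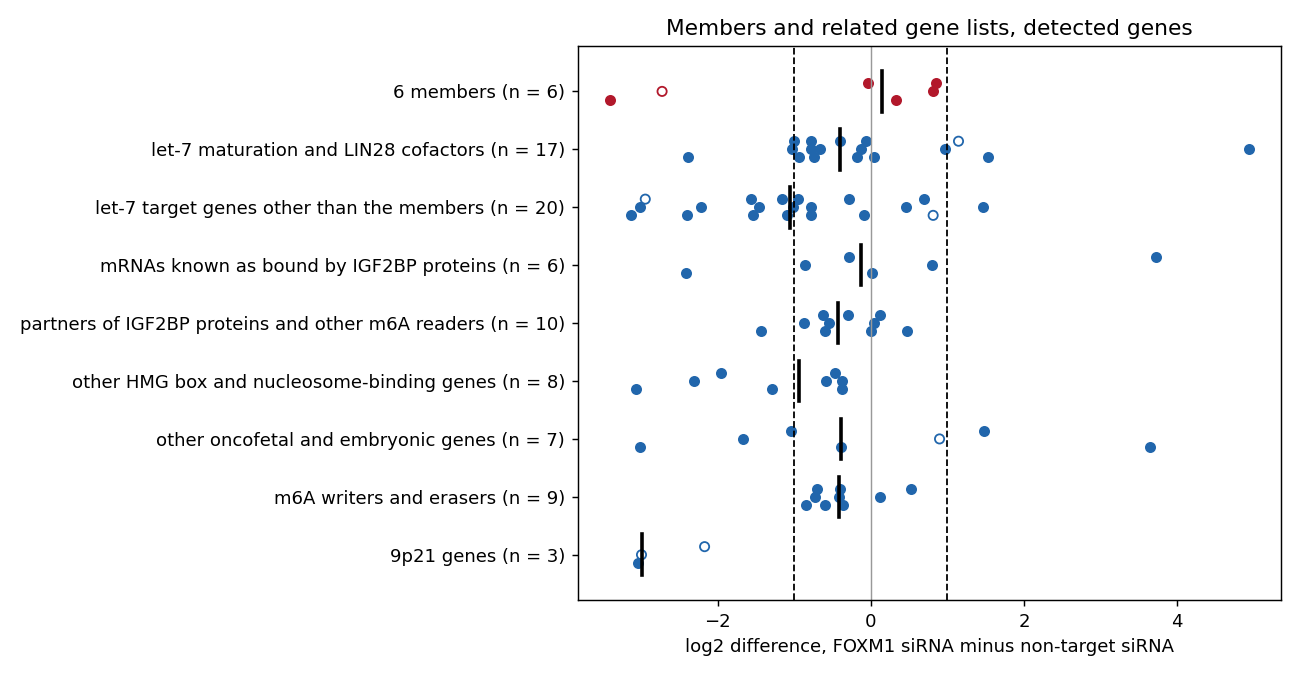
Log2 difference, FOXM1 siRNA minus non-target siRNA, of the 6 members (red) and of the detected genes of the related lists (blue), 1 point per gene; open circles are bounds, black bars are medians and dashed lines mark 2-fold. The let-7 targets have a median of -1.05 and all 8 other HMG genes lie below 0, while the brightest probe sets of the m6A writers and erasers lie inside the 2-fold lines on the deposited scaling.

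The mRNAs known as bound by IGF2BP proteins showed no common direction. Of 12 listed, 8 were measured and 6 detected, with a median of -0.13. Of these 6, 1 was 2-fold or more higher and 1 lower, against 16% and 15.4% of all detected genes. With the hybridisation controls set equal 2 were lower, and likewise without probe sets ending in _x_at or _s_at. CD44, the hyaluronan receptor gene, was 13.2-fold higher, at 29344 on the FOXM1 siRNA array and 2222 on the non-target array. ABCB1, a drug efflux pump, was 5.34-fold lower in its brightest probe set, at 79.5 on the FOXM1 siRNA array and 424 on the non-target array, and another probe set gave -0.28 in log2 difference. Of the 10 detected partners of IGF2BP proteins and other m6A readers, 9 were under 2-fold and 1 was lower, with a median of -0.42. Over all detected genes 15.4% were 2-fold or more lower and 16% higher. The lower partner was DHX9, an RNA helicase found with IGF2BP1 on its targets, 2.69-fold lower at 2293 on the FOXM1 siRNA array and 6173 on the non-target array. With the hybridisation controls set equal 2 of this list were lower, and none without probe sets ending in _x_at or _s_at. With the median of probe sets 1 was higher. Other probe sets passed 2-fold for YTHDF3 (1.71), ELAVL1 (-1.16) and HNRNPU (-1.07 in log2 difference). All 9 m6A writers and erasers were detected, and in their brightest probe sets on the deposited scaling none reached 2-fold, with log2 differences from -0.84 to 0.53 and a median of -0.42. With the hybridisation controls set equal 2 of them were 2-fold or more lower, and other probe sets passed 2-fold for METTL3 (-1.23), RBM15 (1.06) and ZC3H13 (1.02 in log2 difference). All detected members of these last lists lay above the floor on both arrays, whereas IGF2BP1 lay below it on the FOXM1 siRNA array.

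The other high mobility group genes, which share the name but not the AT-hook of the HMGA proteins, were all lower on the FOXM1 siRNA array in their brightest probe sets, under each scaling tried. All 8 were above both floors. Of them, 4 were 2-fold or more lower and none higher, against 15.4% and 16% of all detected genes. The median log2 difference was -0.93, against 0.01 for all detected genes. HMGN5, a nucleosome-binding protein, was 8.35-fold lower in its brightest probe set, at 417 on the FOXM1 siRNA array and 3484 on the non-target array, while another probe set of it gave 0.21 in log2 difference. HMGN3 was 4.96-fold lower, at 2564 on the FOXM1 siRNA array and 12714 on the non-target array. HMGB3, a DNA-bending HMG box protein, was 3.89-fold lower, at 2034 on the FOXM1 siRNA array and 7918 on the non-target array. HMGA1 and HMGA2 had the opposite sign, at 0.85 and 0.81 in their brightest probe sets.

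Other oncofetal and embryonic genes also went in both directions. Of 13 listed, 11 were measured and 7 detected. Of these 7, 2 were 2-fold or more higher and 3 lower, against 16% and 15.4% of all detected genes. PEG10, an imprinted retrotransposon-derived gene, was 12.5-fold higher, at 2756 on the FOXM1 siRNA array and 220 on the non-target array. TPBG, the trophoblast glycoprotein, was 2.78-fold higher, at 5262 on the FOXM1 siRNA array and 1895 on the non-target array. TRIM71 was lower by the values above, GPC3, a glypican of fetal liver, was 3.18-fold lower at 171 on the FOXM1 siRNA array and 544 on the non-target array, and PLAGL1, an imprinted zinc finger gene, was 2.06-fold lower at 1682 on the FOXM1 siRNA array and 3460 on the non-target array. Detected probe sets of PLAGL1 ran from -1.04 to -0.41 in log2 difference, and those of TPBG from 0.91 to 1.47. The lower count of the list was 2 under loess scaling and with both other choices of probe set, and the higher count was 3 with no floor. The median log2 difference of the list was -0.39, and 0.26 without probe sets ending in _x_at or _s_at.

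Promoters were searched because FOXM1 is known to reach mitotic genes through the cell cycle homology region, read here as TTTGAA, and can bind forkhead motifs, read here as TGTTTAC, each on both strands; these 2 motifs do not overlap. RefSeq promoter windows (GRCh38.p14, 250 bases before to 50 after a start) were found for 4 members, 7 windows in all. TTTGAA was present in 2 of the 7 windows, 1 of IGF2BP2 and that of IGF2BP3, and in 15.2% of all 35116 windows. TGTTTAC was present in none of the 7 and in 3.42% of all windows. The IGF2BP3 window (chr7:23470442-23470741, minus strand) holds TTTGAA once on each strand, in capitals, and the first LIN28B window (chr6:104940715-104941014, plus strand) holds neither motif. They are shown as the member with the most nearly equal signals and the member with the largest difference above both floors.
IGF2BP3: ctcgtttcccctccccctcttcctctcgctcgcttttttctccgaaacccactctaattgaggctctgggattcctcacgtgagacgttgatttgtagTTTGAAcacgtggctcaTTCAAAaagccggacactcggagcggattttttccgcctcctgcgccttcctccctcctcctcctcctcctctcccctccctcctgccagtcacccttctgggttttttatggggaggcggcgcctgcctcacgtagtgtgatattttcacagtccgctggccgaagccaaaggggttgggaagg
LIN28B: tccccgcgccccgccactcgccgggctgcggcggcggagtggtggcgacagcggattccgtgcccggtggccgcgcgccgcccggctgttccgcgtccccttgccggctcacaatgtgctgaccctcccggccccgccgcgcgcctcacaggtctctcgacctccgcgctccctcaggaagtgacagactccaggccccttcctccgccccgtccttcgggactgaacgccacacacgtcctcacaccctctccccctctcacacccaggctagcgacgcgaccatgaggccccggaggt

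**Figure D4:**
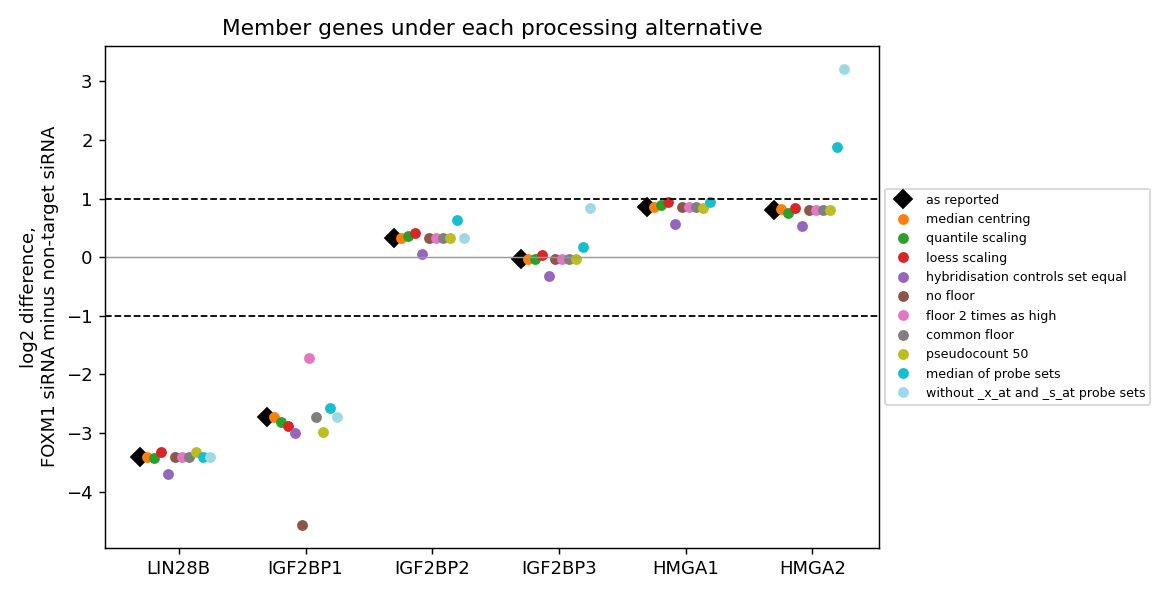
Log2 difference, FOXM1 siRNA minus non-target siRNA, of the 6 member genes as reported (black diamonds) and under each processing alternative (coloured points), with 2-fold dashed. LIN28B stays between -3.69 and -3.31 and IGF2BP1 at or below -1.72, IGF2BP2, IGF2BP3 and HMGA1 stay inside the 2-fold lines, and HMGA2 crosses 2-fold under 2 choices of probe set, at 1.89 and 3.21.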

How the data were processed

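The deposited values are linear signal intensities, made by the authors with MAS5 per the submitters' processing notes (version not given in the sources used here) from biotin-labelled 3′ IVT cRNA, which reports mainly the 3′ end of transcripts; they came with no detection calls. Probe sets were named through the platform table (41097 with 1 symbol) and symbols updated by gene ID (99.9%, GRCh38.p14 gene table). Values below an array's floor were raised to it before log2. Log2 differences are FOXM1 siRNA minus non-target siRNA. A fold with 1 side below the floor is a bound. Each gene was read from its brightest probe set (mean of log2 signals), with a 2-fold threshold for counts. With 1 array per group no test was made. The members and lists were chosen with earlier results of these data known. Named genes were the members, FOXM1, the 9p21 genes, up to 3 genes per direction past 2-fold from each list, 7 genes fixed by name (those without a single-symbol probe set were not analysed here), and the 3 genes nearest to LIN28B. The calculation was tested on simulated data. Python 3.11.15, numpy 2.4.6, pandas 2.3.3 and statsmodels 0.14.6 (lowess span 0.3) were used. A pseudocount of 50, a 1.5-fold threshold and other scalings, floors and probe set choices were the alternatives.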

Additional observations from a re-analysis of the deposited data

How the results depend on the processing

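LIN28B, IGF2BP1, IGF2BP2, IGF2BP3 and HMGA1 kept their side of 2-fold under every alternative run for them (10 each, 9 for HMGA1, whose probe sets all end in _x_at or _s_at), and HMGA2 under 8 of 10. For LIN28B, with 1 probe set above every floor tried, the floor and probe set alternatives could not change its value of -3.41. The IGF2BP1 log2 difference was -4.56 with no floor and -1.72 with a floor 2 times as high, since its signal on the FOXM1 siRNA array lies below the floor. HMGA2 was 1.89 with the median of probe sets. Without probe sets ending in _x_at or _s_at, HMGA2 was 3.21, IGF2BP3 0.84 and the median of the other oncofetal genes 0.26. The 9p21 median was -1.99 with the higher floor and -2.41 with a pseudocount of 50. Setting the hybridisation controls equal lowered the median of all genes by 0.28 (to -0.27) and split the 2-fold calls into 1619 higher and 3116 lower, against 2218 and 2132. Relative to that shift the members' differences are as reported. At 1.5-fold, 3623 genes were higher and 3714 lower. Of 152 member probe set values under alternatives, 136 moved by less than the SD of 0.50, and none of the called ones changed sign. A probe set above every floor tried could not move under the floor alternatives. Among those under 2-fold, IGF2BP1 241574_s_at went from -0.87 to 0.13 with a floor 2 times as high. The IGF2BP3 probe sets 203819_s_at and 203820_s_at changed sign under the scalings given above. At 1.5-fold, lower counts were 8 for the let-7 maturation list, 4 for the IGF2BP partners and 4 for the m6A writers and erasers, against 2, 1 and 0 at 2-fold. No paired analysis was possible because each group holds 1 array.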
